A study of Mus musculus with 4 samples.

Results

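In mouse small intestine and colon, 7 genes of vitamin A uptake and metabolism were examined, out of 20811 condensed genes. They were taken by symbol: Rbp2, Lrat, Bcmo1, Rdh7, Dhrs9, Aldh1a1 and Aldh1a2. A condensed gene is a set of merged RefSeq exons (exon blocks) of mm9 that splice junctions join, divided or combined by GENCODE M1 gene. Total tissue came from C57BL/6 mice of 9 to 10 weeks that were kept under SPF conditions and received no treatment, and the methods give jejunum for the small intestine and distal colon for the colon. The labels list 4 libraries, 1 per tissue and protocol. In the cDNA fragmented protocol, polyadenylated RNA was copied and amplified by SMART cDNA synthesis. In the other protocol RNA depleted of ribosomal RNA went into the SOLiD Whole Transcriptome Analysis Kit, by the labels, and the reads kept their strand. The paper's fragmented RNA libraries are described as polyadenylated, with longer and more reads than the files hold here, so the name of the labels is kept and that description is not applied. The paper describes both tissues as taken from the same mice, but which mice and how many entered each library is not given in the sources used here. There were no replicates, so no test was run and all intervals are 95% intervals that cover counting error only.

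Dietary vitamin A reaches the enterocyte, the absorptive cell of the gut lining, as retinol or as β-carotene. Bcmo1 cleaves β-carotene to retinaldehyde, Rbp2 binds retinol and retinaldehyde inside the enterocyte, and Lrat joins retinol to a fatty acid so that the ester can leave the cell in chylomicrons. Rdh7 and Dhrs9 are short-chain dehydrogenases that oxidise retinol to retinaldehyde, and Aldh1a1 and Aldh1a2 oxidise retinaldehyde to retinoic acid, the form that binds nuclear receptors.

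Of the 7 members, Rbp2, Bcmo1, Lrat and Rdh7 had higher levels in small intestine in both protocols, Dhrs9 and Aldh1a1 had higher levels in colon, and Aldh1a2 changed order between the protocols. Rbp2, Bcmo1 and Rdh7 passed the 3-fold rule towards small intestine in both protocols. This rule asks for an RPKM (reads per kilobase of exon and per 1000000 uniquely placed reads) in one tissue of at least 3 times the RPKM in the other plus 1. The count was 3 of 7 members in each protocol, where 2.72% of 16481 genes tested in the cDNA fragmented pair and 3.71% of 15080 genes tested in the ribosomal RNA-depleted pair passed in that direction. Towards colon, 0 members passed in the cDNA fragmented pair, against 3.22% of all genes tested. Aldh1a1, 1 member of 7, passed towards colon in the ribosomal RNA-depleted pair, against 6.62% of all genes tested. All 7 members passed the filter on low values, more than 0.01 RPKM with at least 2 start points in at least 1 tissue, in both protocols. Over the 7 members the median log2 ratio (colon over small intestine) was -2.00 in the cDNA fragmented pair and -1.65 in the ribosomal RNA-depleted pair. Over all genes with reads in both tissues it was 0.41 and 0.36. The members were chosen with earlier results of these data known, so these shares and medians are descriptive and no test of the list.

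**Figure D1:**
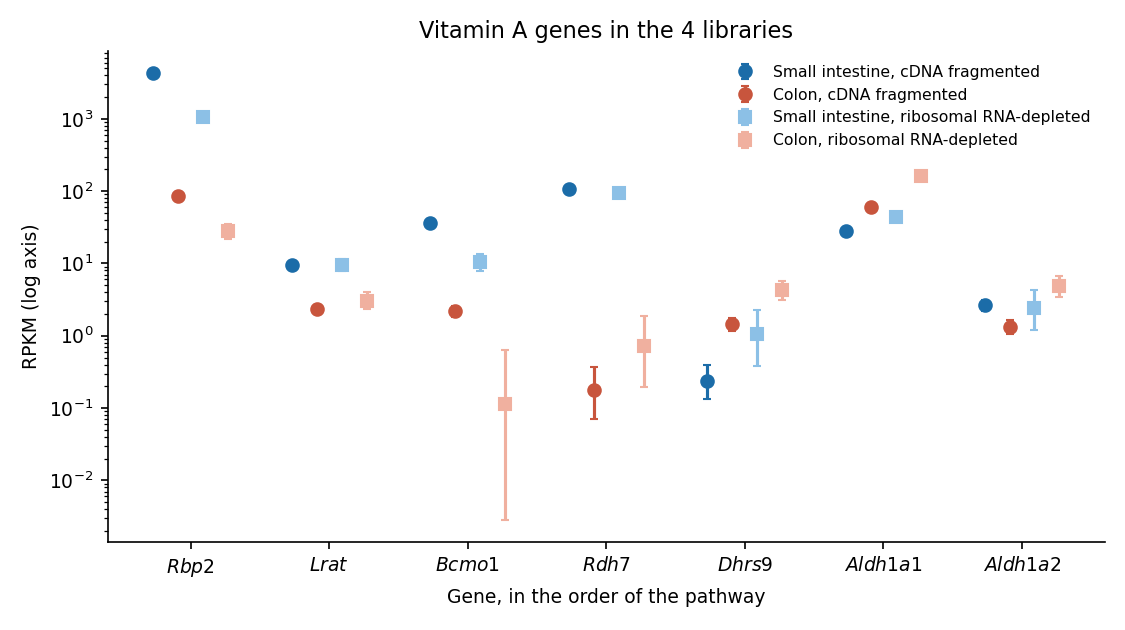
RPKM (log axis) of the 7 genes in the 4 libraries, 1 point per library with its exact Poisson 95% interval. Rbp2, Lrat, Bcmo1 and Rdh7 lie higher in both small intestine libraries (blue) than in either colon library (red), Dhrs9 and Aldh1a1 lie higher in colon within each protocol, and Aldh1a2 changes order between the protocols.

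Uniquely placed reads numbered 22484041 and 24798934 in the cDNA fragmented libraries of small intestine and colon, with 2035386 and 3478387 after ribosomal RNA depletion. The summed RPKM of 7 enterocyte markers was 54565 in small intestine and 4525 in colon by cDNA, and 10686 and 569 after ribosomal RNA depletion. The 4 colonocyte markers summed to 400.1 and 56680, and to 109.7 and 7145, so each library carried the markers of its labelled tissue. The cDNA fragmented small intestine library had Xist at 3.86 RPKM and Y-linked Uty at 0, while its colon counterpart had Xist at 0.0617 and Uty at 3.54 RPKM. Both ribosomal RNA-depleted libraries had Uty, at 12.2 and 18.8 RPKM. Beside the paper's description of shared mice, the sex-linked genes of the cDNA fragmented pair differed between its tissues, so tissue and sex of the mice cannot be told apart there. Fewer cells of a type and less RNA per cell cannot be told apart in any of these tissue libraries. Pancreatic acinar markers (10 of 11 found) summed to 328 and 706 RPKM in the cDNA fragmented libraries of small intestine and colon and to 3343 and 20.9 RPKM in the ribosomal RNA-depleted ones. Clps alone gave 328 RPKM in the cDNA fragmented small intestine library, where 6 of the 10 had no reads, and without it the sums were 0.827, 557, 3228 and 10.5 RPKM in the same order. Their part in the results was not tested. Over genes with at least 20 reads in both libraries the median log2 ratio was 0.33 in the cDNA fragmented pair and 0.24 in the ribosomal RNA-depleted pair. Ratios are taken from reads per 1000000 uniquely placed reads, and values relative to these medians are given where named.

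Rbp2 (chr9:98390956-98410189, 4 exon blocks), the intracellular retinol carrier, was the most abundant member in small intestine. It had 64218 reads in the cDNA fragmented small intestine library, 1417 in the colon library of that protocol, and 1462 and 65 reads in the ribosomal RNA-depleted libraries of small intestine and colon. Its level was 4257 and 85.2 RPKM by cDNA and 1070 and 27.8 RPKM after ribosomal RNA depletion. Both small intestine values lay far above both colon values, and the intervals of the tissues did not overlap. The level was 50.0-fold higher in small intestine in the cDNA fragmented pair (47.4 to 52.7) and 38.4-fold higher in the ribosomal RNA-depleted pair (30.0 to 50.1). Relative to the median gene, the log2 ratios (colon over small intestine) were -5.98 and -5.50. By RPKM, Rbp2 ranked 19th among 20811 genes in the cDNA fragmented small intestine library and 42nd in the ribosomal RNA-depleted one. In colon it ranked 1116th and 2723rd. The 64218 reads lay on 1073 start points (positions and strands), 59.8 reads per start point, against 2.32 reads per start point in colon. When start points were counted in place of reads, the log2 ratio of the cDNA fragmented pair was -0.88 rather than -5.64 and the gene no longer passed the 3-fold rule there. In the ribosomal RNA-depleted pair it was -3.54 rather than -5.26.

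Every exon block of Rbp2 was far lower in colon. In the cDNA fragmented pair the ratio of colon to small intestine was 0.0158, 0.0195, 0.0216 and 0.0209 in blocks 1 to 4, from the 5' end. All 4 blocks were wholly open to unique placement of 35-base reads, as no 35-base window of the gene lay within 3 color mismatches of another exon.

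Bcmo1 (chr8:119619765-119657620, 12 blocks), which cleaves β-carotene, had 2080 reads in small intestine and 136 in colon by cDNA, and 54 and 1 after ribosomal RNA depletion. Its level was 36.5 and 2.17 RPKM by cDNA, a 16.9-fold higher value in small intestine (14.2 to 20.2). After ribosomal RNA depletion it was 10.5 and 0.114 RPKM. The single colon read is below the floor of 3 reads, which stands for 0.341 RPKM in that library, and the ratio of 92.3 has a counting interval from 15.9 to 3712. Relative to the median gene, the log2 ratio of the cDNA fragmented pair was -4.41. The small intestine was higher in every block with at least 10 reads. Block 11 (chr8:119654952-119655156, 205 bases, 167 of them exonic in GENCODE M1) had 1 read in the cDNA fragmented small intestine library, although all its windows could be placed uniquely. The neighbouring blocks 10 and 12 had 72 and 816 reads in that library.

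**Figure D2:**
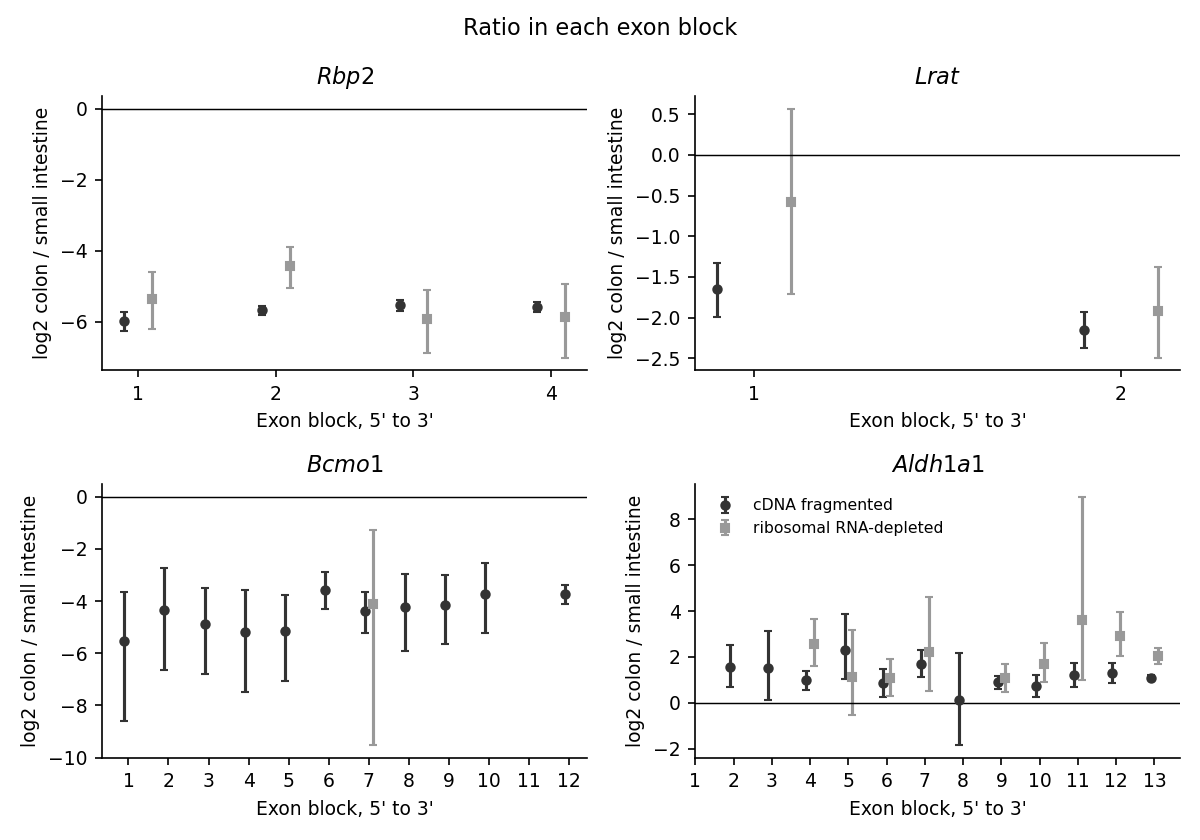
Log2 ratio of colon to small intestine in each exon block of 4 members, from the 5' to the 3' end, with exact 95% counting intervals. Blocks with fewer than 10 reads in a pair, or with none in 1 tissue, are not drawn. All drawn blocks of Rbp2 and Bcmo1 lie below 0, and those of Aldh1a1 lie above 0, with intervals that reach 0 in some blocks.

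Because Rbp2 and Bcmo1 were both higher in small intestine, the 250 bases before their transcription start are shown from RefSeq (GRCm38.p6, a later build than that of the reads, plus strand, ending 1 base before the start). Of the 7 members, 7 matched the promoter table, Rdh7 and Aldh1a1 with 2 entries each. Capitals mark matches on either strand. The letters searched were AGGTCA, a half-site of nuclear receptors such as those for retinoic acid and fatty acids, and AGATAA, known for factors of the zinc finger kind that include GATA4. For CDX factors the run TTTATTG was searched, as was its variant TTTATGG. The letters of the HNF4 motif were CAAAGTCCA, and those of the core promoter box were TATAAA. Overlapping matches run together.
Rbp2 (chr9:98490287-98490536): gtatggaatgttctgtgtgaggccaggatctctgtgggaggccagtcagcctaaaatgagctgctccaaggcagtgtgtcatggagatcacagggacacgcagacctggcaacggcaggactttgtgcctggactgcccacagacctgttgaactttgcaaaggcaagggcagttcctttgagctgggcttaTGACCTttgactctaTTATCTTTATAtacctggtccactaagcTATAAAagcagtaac
Bcmo1 (chr8:117095615-117095864): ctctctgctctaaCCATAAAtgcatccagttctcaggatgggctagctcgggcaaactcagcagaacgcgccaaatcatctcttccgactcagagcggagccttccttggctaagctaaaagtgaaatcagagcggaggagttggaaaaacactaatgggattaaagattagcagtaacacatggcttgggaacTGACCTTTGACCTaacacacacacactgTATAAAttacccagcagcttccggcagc

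Bcmo1 held 2 copies of AGGTCA that form a direct repeat spaced by 1 base, AGGTCANAGGTCA, on the minus strand starting 56 bases before the transcription start. This repeat was found in 0.0335% of 32851 promoter windows of the same length, and in no other member. AGGTCA alone was in 14.0% of all windows and in those of Rbp2, Bcmo1 and Dhrs9 and 1 of the Rdh7 entries. AGATAA was found in 9.99% of all windows and in those of Rbp2 and 1 of the Aldh1a1 entries. A TATAAA match occurred in 12.4% of all windows, and in those of Rbp2, Bcmo1 and Dhrs9. The CDX motif was in 6.51% of all windows and among the members in that of Bcmo1, and CAAAGTCCA was in 0.384% of all windows and in no member. Lrat and Aldh1a2 held none of the motifs searched. A match is a run of letters and not a measured binding site.

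Lrat (chr3:82696504-82707896, 2 blocks) esterifies retinol. By cDNA the small intestine held 1131 reads and the colon 311, and after ribosomal RNA depletion they held 105 and 57. The small intestine values, 9.40 and 9.64 RPKM, were close to each other across the protocols, and so were the colon values, 2.34 and 3.06 RPKM. In the cDNA fragmented pair small intestine was 4.01-fold higher (3.53 to 4.56), and in the ribosomal RNA-depleted pair 3.15-fold higher (2.26 to 4.43). With 1 added to the colon RPKM the folds were 2.81 and 2.37, so Lrat did not pass the 3-fold rule in either pair. It passed in the cDNA fragmented pair after scaling to the median gene or by start points, and in both pairs with 0.1 RPKM added. Both blocks were lower in colon, with ratios of colon to small intestine of 0.318 and 0.226 in the cDNA fragmented pair.

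Rdh7 (chr10:127321084-127325789, 4 blocks) had the largest ratio of the 7 members in the cDNA fragmented pair. It had 3856 reads in the cDNA fragmented small intestine library and 7 in the colon library, and 307 and 4 reads in the ribosomal RNA-depleted libraries. Its level was 107.6 and 0.177 RPKM by cDNA and 94.6 and 0.721 RPKM after ribosomal RNA depletion. Colon was near the floor of 3 reads, which stands for 0.0759 and 0.541 RPKM. Small intestine was 608-fold higher by cDNA (295 to 1512) and 131-fold higher after ribosomal RNA depletion (50.7 to 484). Both intervals lay far from 1. By start points the log2 ratios (colon over small intestine) were -7.79 and -5.40, rather than -9.25 and -7.04, and the gene passed the 3-fold rule in both pairs. With at most 1 color mismatch the second was -6.30, and that of Bcmo1 after ribosomal RNA depletion was -5.69 rather than -6.53.

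Rdh7 belongs to a cluster of related dehydrogenase genes on chromosome 10, and reads that fit several of them had been removed by the authors. Of its 1458 windows 70.0% could be placed uniquely, and the others had a second placement mostly in Rdh1 (152 windows) and Hsd17b6 (150 windows). Counted over uniquely placeable windows alone, Rdh7 had 160.2 and 0.237 RPKM by cDNA and 145.8 and 1.13 RPKM after ribosomal RNA depletion. The neighbours differed from it. Rdh9 was 4.25-fold higher in small intestine by cDNA (3.91 to 4.61) and 2.22-fold higher after ribosomal RNA depletion (1.66 to 2.97). Rdh16 was lower in small intestine than in colon in both pairs, at 2.63 and 4.86 RPKM by cDNA and 1.84 and 6.99 RPKM after ribosomal RNA depletion. Rdh1 stood at 0.434 and 2.15 RPKM by cDNA and at 3.54 and 2.59 RPKM after ribosomal RNA depletion, where the interval of the ratio of colon to small intestine (0.432 to 1.25) includes 1. In the directional libraries 15 of 28 Rdh1 reads in small intestine and 27 of 35 in colon lay on the strand of the gene. Over uniquely placeable windows alone the ratio was 12.4 by cDNA (7.08 to 23.8) and 1.04 after ribosomal RNA depletion (0.523 to 2.17).

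The coding exon block 3 of these genes is shown as a stretch in which Rdh7 can be told from its neighbours but Rdh9 and Rdh16 cannot be told from each other. Sequences are from mm9 in the sense of transcription (Rdh7 on the minus strand, Rdh9 and Rdh16 on the plus strand), and capitals mark bases at which Rdh7 and the other 2 genes differ.
Rdh7 block 3 (chr10:127322729-127322892): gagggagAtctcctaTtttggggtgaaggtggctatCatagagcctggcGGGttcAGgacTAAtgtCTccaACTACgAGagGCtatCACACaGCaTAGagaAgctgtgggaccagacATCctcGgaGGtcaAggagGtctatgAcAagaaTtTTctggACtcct
Rdh9 block 3 (chr10:127227245-127227408): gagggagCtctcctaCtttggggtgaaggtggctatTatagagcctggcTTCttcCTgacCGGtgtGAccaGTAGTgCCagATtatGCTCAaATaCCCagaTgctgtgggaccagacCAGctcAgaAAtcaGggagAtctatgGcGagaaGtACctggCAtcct
Rdh16 block 3 (chr10:127249842-127250005): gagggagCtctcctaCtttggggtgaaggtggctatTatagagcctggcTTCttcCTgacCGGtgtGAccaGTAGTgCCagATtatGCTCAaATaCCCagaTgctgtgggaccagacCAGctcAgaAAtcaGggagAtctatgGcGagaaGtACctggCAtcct

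Rdh9 and Rdh16 are identical over these 164 bases, and each had 0 reads there in every library. Rdh7 differs from both at 48 of the 164 bases, 70.7% identity, and had 588 reads in its block 3 in the cDNA fragmented small intestine library, where 90.8% of the windows could be placed. A count of 0 in such a copied block says nothing about the level of the gene.

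Dhrs9 (chr2:69218519-69241143, 5 blocks), another retinol dehydrogenase, was higher in colon at low levels. Small intestine held 15 reads and colon 100 by cDNA, and 6 and 42 after ribosomal RNA depletion. Its level was 0.237 and 1.43 RPKM by cDNA and 1.05 and 4.29 RPKM after ribosomal RNA depletion. Colon was 6.04-fold higher by cDNA (3.49 to 11.2) and 4.10-fold higher after ribosomal RNA depletion (1.73 to 11.8). The intervals of the tissues did not overlap in either pair. Since 1 RPKM is added in the divisor, the penalised folds were 1.16 and 2.09, and Dhrs9 passed the 3-fold rule towards colon only with 0.1 RPKM added, then in both pairs. All of its windows could be placed uniquely.

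Aldh1a1 (chr19:20676472-20717952, 13 blocks), which makes retinoic acid, was the member with the highest level in colon after ribosomal RNA depletion. Reads numbered 1298 in small intestine and 3087 in colon by cDNA, and 183 and 1160 after ribosomal RNA depletion. Its level was 28.4 and 61.3 RPKM by cDNA and 44.2 and 164.1 RPKM after ribosomal RNA depletion. Colon was higher in each pair, 2.16-fold by cDNA (2.02 to 2.30) and 3.71-fold after ribosomal RNA depletion (3.17 to 4.36), and the intervals of the 2 pairs did not overlap. Relative to the median gene, the log2 ratios (colon over small intestine) were 0.77 and 1.65. By start points the log2 ratios were 0.64 and 0.82, and Aldh1a1 then no longer passed the 3-fold rule in the ribosomal RNA-depleted pair.

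Aldh1a2 (chr9:71063596-71144050, 14 blocks), another retinaldehyde dehydrogenase, changed direction between the protocols. By cDNA it had 135 reads in small intestine and 75 in colon, 2.65 and 1.34 RPKM, which was 1.99-fold higher in small intestine (1.49 to 2.67). In the ribosomal RNA-depleted libraries it had 11 and 38 reads, 2.39 and 4.83 RPKM, which was 2.02-fold higher in colon (1.01 to 4.38). Over uniquely placeable windows alone, which leave out reads that run past a block edge, the second ratio was 1.70. Its interval ran from 0.836 to 3.74, with 11 and 32 reads. The 38 colon reads fell to 32 at block edges, as 0 reads of either library lay in a window with a second placement. Dendritic cell markers, 5 of 5 found, summed to 8.52 and 2.04 RPKM in the cDNA fragmented libraries of small intestine and colon and to 9.46 and 6.18 RPKM in the ribosomal RNA-depleted ones. Without Itgae, which intraepithelial lymphocytes also carry, the sums were 2.75 and 1.33 RPKM and 4.19 and 4.17 RPKM. Unlike the other dendritic cell markers, Zbtb46 by cDNA (0.179 and 0.187 RPKM) and Itgax after ribosomal RNA depletion (2.20 and 2.71 RPKM) were higher in colon. Fibroblast markers summed to 230 and 253 RPKM and to 43.1 and 190 RPKM in the same order. Without Dcn the sums were 43.2 and 46.0 RPKM and 20.8 and 46.3 RPKM. By cDNA Pdgfra (9.73 and 8.19 RPKM) and Lum (25.8 and 24.5 RPKM) were lower in colon, unlike the other fibroblast markers. The part of either marker list in the result for Aldh1a2 was not tested.

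**Figure D3:**
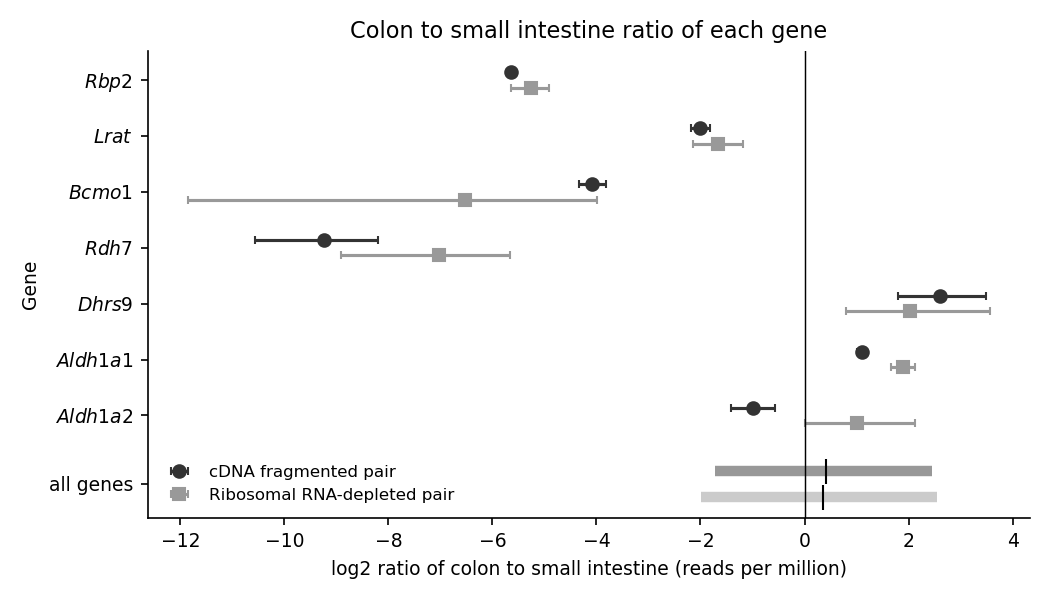
Log2 ratio of colon to small intestine for the 7 genes, with exact 95% counting intervals, in the cDNA fragmented pair (dark circles) and the ribosomal RNA-depleted pair (grey squares). Bars at the foot span the 5th to the 95th percentile of all genes with reads in both tissues, from -1.73 to 2.44 and from -2.00 to 2.55, with a tick at their median, and Rbp2, Bcmo1 and Rdh7 lie outside them in both pairs.

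Of the summed RPKM of the retinaldehyde dehydrogenases Aldh1a1, Aldh1a2 and Aldh1a3 and their relative Aldh1a7, Aldh1a1 made up 56.6% in small intestine and 85.3% in colon by cDNA. After ribosomal RNA depletion its shares were 67.3% and 89.4%. Aldh1a3 made up 19.7% and 1.85% by cDNA and 14.5% and 0.875% after ribosomal RNA depletion. It was 7.45-fold higher in small intestine by cDNA (6.11 to 9.17) and 5.94-fold higher after ribosomal RNA depletion (3.52 to 10.5). Aldh1a1 and Aldh1a3 thus lay on opposite sides of 1 in both pairs. The shares use RPKM over all exonic bases. Of the windows, 72.6% and 73.1% could be placed uniquely in Aldh1a1 and Aldh1a7, against 99.7% and 99.8% in Aldh1a2 and Aldh1a3. The levels of Aldh1a1 and Aldh1a7 are thus counted too low beside the others.

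Aldh1a1 and Aldh1a7 lie side by side on chromosome 19 and are 91.4% identical over 1367 bases of blocks 2 to 12. In Aldh1a1 435 of 1590 windows had a second placement, and for all 435 it lay in Aldh1a7. Block 8, in which no window could be placed uniquely, and block 4, in which all could, are shown from mm9 in the sense of transcription (Aldh1a1 on the plus strand, Aldh1a7 on the minus strand). Both are wholly coding. Capitals mark the bases that differ.
Aldh1a1 block 8 (chr19:20703544-20703646): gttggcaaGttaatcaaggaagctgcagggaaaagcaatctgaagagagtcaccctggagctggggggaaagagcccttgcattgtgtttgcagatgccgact
Aldh1a7 block 8 (chr19:20783888-20783990): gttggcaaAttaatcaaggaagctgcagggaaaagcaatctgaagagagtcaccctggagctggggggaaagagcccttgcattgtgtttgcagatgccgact
Aldh1a1 block 4 (chr19:20694459-20694588): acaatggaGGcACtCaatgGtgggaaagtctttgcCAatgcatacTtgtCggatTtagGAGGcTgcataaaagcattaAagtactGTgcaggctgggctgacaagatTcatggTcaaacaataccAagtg
Aldh1a7 block 4 (chr19:20793676-20793805): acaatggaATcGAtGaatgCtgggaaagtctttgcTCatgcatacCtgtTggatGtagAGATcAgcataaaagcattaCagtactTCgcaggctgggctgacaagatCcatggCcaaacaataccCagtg

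In block 8 the genes differ at 1 of 103 bases, and Aldh1a1 had 6 reads there in the cDNA fragmented colon library. Block 4 differs at 22 of 130 bases, and Aldh1a1 had 159 reads there in that library. Over uniquely placeable windows alone Aldh1a1 had 46.8 and 100.5 RPKM in small intestine and colon by cDNA. After ribosomal RNA depletion it had 73.2 and 271 RPKM. These levels were between 1.64 and 1.65 times those over all exonic bases. Part of this factor comes from dividing by windows rather than bases. It was between 1.16 and 1.23 for Rbp2, of which every window could be placed uniquely. The ratios of colon to small intestine of Aldh1a1 over uniquely placeable windows were 2.15 and 3.70, within the intervals given above. Aldh1a7, which was read through the same windows, lay on the small intestine side by cDNA and on the colon side after ribosomal RNA depletion, with colon to small intestine ratios of 0.854 by cDNA (0.743 to 0.980) and 1.38 after ribosomal RNA depletion (0.940 to 2.04).

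**Figure D4:**
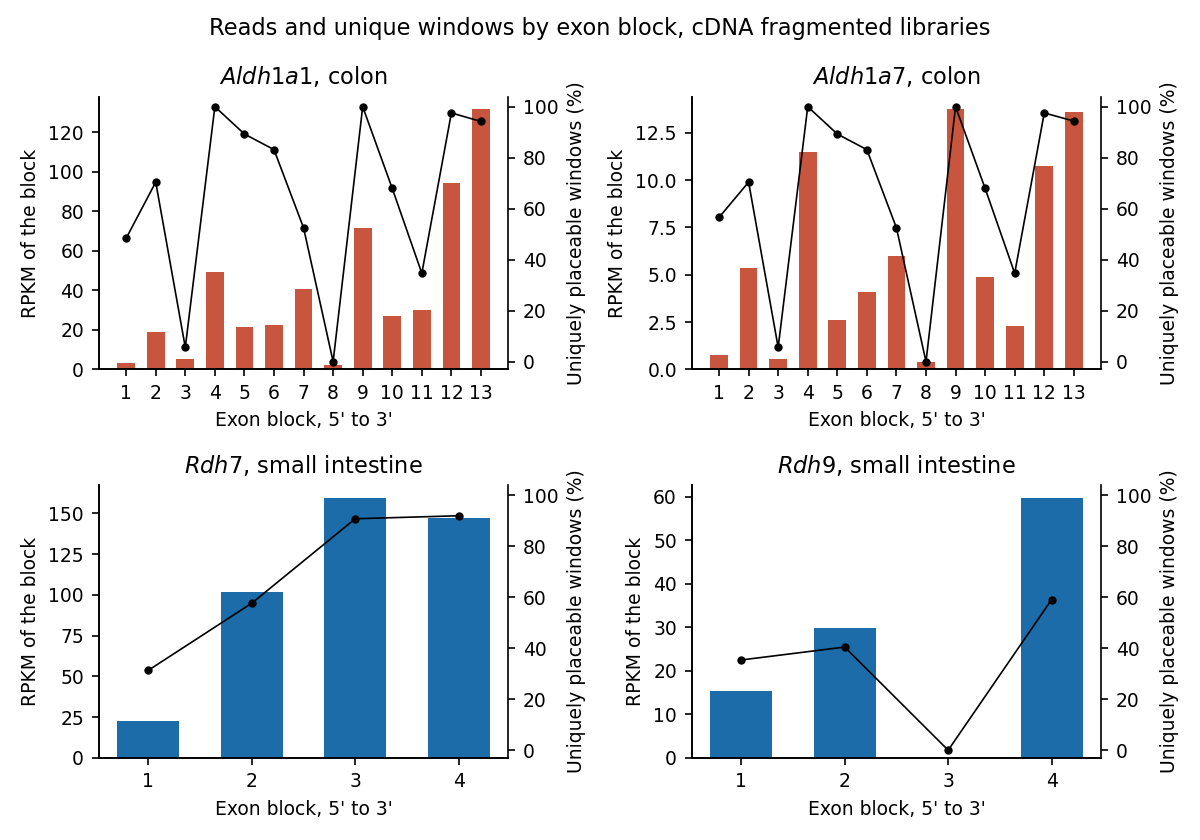
RPKM of each exon block (bars, left axis) and the percentage of its 35-base windows that can be placed uniquely (line, right axis) for Aldh1a1 and Aldh1a7 in the cDNA fragmented colon library and for Rdh7 and Rdh9 in the cDNA fragmented small intestine library. Block 8 of Aldh1a1 and block 3 of Rdh9, each with 0% unique windows, have 6 and 0 reads.

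In the directional ribosomal RNA-depleted libraries the reads of the 7 members lay on the strand of the gene, 100% in every member and library except Bcmo1 in small intestine, where 52 of 54 did. Reads of the cDNA fragmented libraries lay on both strands, for Rbp2 48.8% and 46.9% on the strand of the gene in small intestine and colon. Along the transcript, Aldh1a1 reads lay mostly in the last 25% of the exonic length at the 3' end in the cDNA fragmented libraries, 57.9% in small intestine and 58.2% in colon. After ribosomal RNA depletion this share was 38.8% and 45.9%. In small intestine Rdh7 had 31.9% of its reads in the last 25% by cDNA and 60.9% after ribosomal RNA depletion, and Rbp2 had 18.6% and 16.9%. These shares are not adjusted for the removal of reads with several placements. In Aldh1a1 94.2% of windows in the last block could be placed uniquely. Blocks 3, 8 and 11 stood at 5.61%, 0% and 34.7%, and blocks 4 and 9 at 100%. In Rdh7 the values were 31.3% in block 1 and 91.9% in block 4.

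By level over the 4 libraries, measured as the Euclidean distance of log2(RPKM + 1), the gene closest to Rbp2 was Guca2b at a distance of 0.231, with 4204 and 77.9 RPKM in small intestine and colon by cDNA and 1117 and 24.4 RPKM after ribosomal RNA depletion. The gene second closest to Rbp2 was Lyz1 (1.54), which has a near-identical copy. Closest to Lrat was Cck (0.0855), the gene of a gut hormone, followed by Eepd1 (0.342). Bcmo1 was closest to Npl (0.933) and Slc47a1 (0.937). For Rdh7 the closest genes were Cyp2b10 (0.546) and Ugt2a3 (0.754). Dhrs9 was closest to Hoxa3 (0.254) and Syt13 (0.299). Aldh1a2 lay nearest to Cp (0.242) and Mastl (0.260).

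A further 41 genes of the pathway were counted by the same rule, and all 41 were found. In the cDNA fragmented pair 38 were tested, of which 8 passed towards small intestine and 1 towards colon, against 2.72% and 3.22% of all genes tested. After ribosomal RNA depletion 35 were tested, and 6 passed towards small intestine and 4 towards colon, against 3.71% and 6.62%. Their median log2 ratio (colon over small intestine) was 0.28 over 37 genes and 0.52 over 32 genes with reads in both tissues, beside 0.41 and 0.36 over all genes. The list was chosen with results of these data known.

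Of the 35 genes tested in both pairs, 6 passed towards small intestine in both and 1 towards colon in both, against 2.05% and 2.28% of the 14849 genes tested in both. Among uptake genes this was Plb1, a brush border enzyme that releases retinol from its esters, with 30.0 and 0.182 RPKM in small intestine and colon by cDNA and 45.7 and 0.270 RPKM after ribosomal RNA depletion. Small intestine was 165-fold higher by cDNA (111 to 258). The ester forming enzyme Dgat1 had 117.5 and 17.2 RPKM by cDNA and 131 and 7.54 RPKM after ribosomal RNA depletion, and so lay above Lrat in RPKM in each of the 4 libraries. Bco2, which cleaves carotenoids at another bond than Bcmo1, had 51.7 and 14.96 RPKM by cDNA and 35.04 and 8.17 RPKM after ribosomal RNA depletion. Its ratio of small intestine to colon by cDNA was 3.45 (3.18 to 3.75), against 16.9 for Bcmo1.

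Rbp7, a cellular retinol-binding protein related to Rbp2, was 7.02-fold higher in small intestine by cDNA (6.17 to 8.01) and 5.13-fold higher after ribosomal RNA depletion (1.77 to 18.03). Adh4, an alcohol dehydrogenase, had 270 and 2 reads by cDNA, a ratio of 149 with an interval from 40.8 to 1236, and 44 and 0 reads after ribosomal RNA depletion. Aldh1a3, described above, was another. Towards colon only Ttr, a carrier of the retinol-binding protein of blood, passed in both pairs, with 4.27 and 68.9 RPKM by cDNA and 1.87 and 16.96 RPKM after ribosomal RNA depletion. Cd36 and Rdh9 passed towards small intestine in the cDNA fragmented pair alone, and Rbp4, Adh1 and Rarg towards colon in the ribosomal RNA-depleted pair alone. By start points Cd36, Dgat1 and Rdh9 were not called in the cDNA fragmented pair and Adh1 was not called in the ribosomal RNA-depleted pair, where scaling to the median gene also ended the call of Adh1. The differences between the pairs were not tested.

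Isx, a gut transcription factor known to repress Bcmo1, was named after its values had been seen. It had 103.4 and 125.8 RPKM in small intestine and colon by cDNA and 66.6 and 101.1 RPKM after ribosomal RNA depletion. Its ratio of colon to small intestine was 1.22 (1.17 to 1.27) and 1.52 (1.31 to 1.77), while Bcmo1 stood at 0.0593 by cDNA (0.0495 to 0.0705). Relative to the median gene, the log2 ratios of Isx (colon over small intestine) were -0.052 by cDNA and 0.361 after ribosomal RNA depletion. A link between the levels of Isx and Bcmo1 was not tested. The retinoic acid hydroxylases Cyp26a1 and Cyp26c1 did not pass the filter on low values in either pair. Cyp26b1 passed that filter in both, with 18 and 11 reads in small intestine and colon by cDNA. After ribosomal RNA depletion it had 4 and 13 reads, and it passed the 3-fold rule in neither pair.

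**Figure D5:**
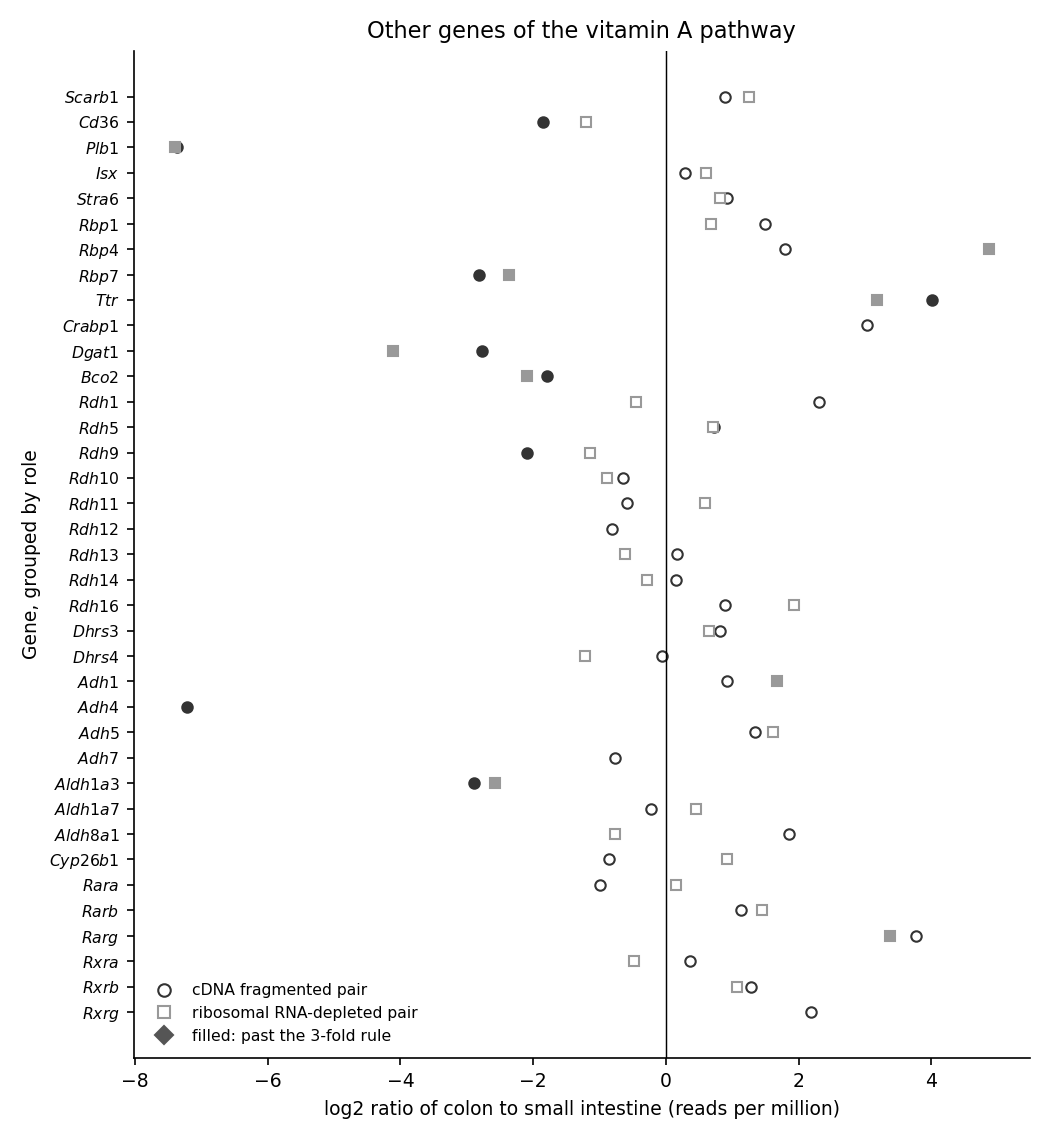
Log2 ratio (colon over small intestine) for the other pathway genes, grouped by role, in the cDNA fragmented pair (circles) and the ribosomal RNA-depleted pair (squares). Filled points passed the 3-fold rule, and genes with no reads in 1 tissue, such as Adh4 after ribosomal RNA depletion, have no point for that pair. Plb1 and Adh4 lie farthest to the left.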

How the data were processed

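The authors deposited positions of single reads and no normalized values. Per the file headers and the deposited reference tables, SOLiD reads of 35 colors had been matched by the authors to the RefSeq exons and junctions of mm9 at up to 3 color mismatches, whereas the paper describes matching to the whole mm9 genome, and reads with more than 1 placement were removed. The ribosomal RNA-depleted libraries held 36419942 and 37466674 total reads, fewer and shorter than those the paper gives for its fragmented RNA libraries, so whether these are the same libraries is not given in the sources used here. Exon blocks were joined by junctions into 20256 sets, and the blocks were assigned to the GENCODE M1 genes (NCBIM37, the same assembly) that their set overlaps. A set was divided where a second coding gene covered at least 15% of its length, and sets of the same gene were combined. GENCODE M1 named 20640 of the resulting 20811 genes. A read was counted in the block that holds its middle. The numbers of placed reads and of start points equal those in the deposited reports for all 4 libraries. Placements on junctions made up 0.754% to 0.822% of reads, and 86.1% to 90.2% of them carried 3 mismatches, against 14.8% to 18.9% of exon placements. They were counted by gene, and single junctions were not read from them.

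RPKM intervals are exact Poisson and ratio intervals are conditional binomial (Clopper-Pearson), at 95%. A count of 0 was set against 3 reads per library. Amplified reads are not independent molecules, so these intervals cover counting error only. A window counted as uniquely placeable if no other exon window matched it with up to 3 color mismatches. Windows lie wholly within a block. Counts over them leave out reads that run past a block edge, and their RPKM uses the number of windows as length. The levels of relatives with near-identical exons are uncertain, since reads that fit several genes had been removed. The members, the pathway list and the marker lists were chosen with earlier results of these data known. Named were the 7 members, pathway genes past the rule in the same direction in both protocols, sequence relatives, and the 2 closest genes outside the lists per member, which for Aldh1a1 are not reported here. Of the other marker lists, summed levels in small intestine and colon by cDNA and then after ribosomal RNA depletion were 2300, 3550, 2246 and 6279 RPKM for goblet cells (3 of 4 found), 1.49, 4.52, 4.12 and 5.41 for mesothelial cells, 204, 754, 174 and 1443 for smooth muscle and 19.8, 156, 14.9 and 132 for adipocytes. Without Clca3 the goblet cell sums were 1896, 2500, 1794 and 1721 RPKM in the same order. Counts were made in Python 3.11.15 with numpy 2.4.6 and scipy 1.17.1. The 3-fold rule and intervals were also run on simulated Poisson counts. These held no duplicate reads and no spread between animals, so they cannot show how the intervals hold in these libraries.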

Additional observations from a re-analysis of the deposited data

Results flagged for a closer look

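Aldh1a2 was singled out because its 2 pairs moved in opposite directions. Its log2 ratio of colon to small intestine was -0.99 in the cDNA fragmented pair and 1.02 in the ribosomal RNA-depleted pair, a difference of 2.005. Each pair holds 1 library per tissue, and the difference was not tested. The second value rests on 11 and 38 reads, and relative to the median gene it was 0.78, while the first was -1.32.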

How the results depend on the processing

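No ratio of a member changed direction under the scaling to the median gene, at most 1 color mismatch, start points, reads on the gene's strand alone or exon placements alone. The median log2 ratio over the members in the cDNA fragmented pair was -2.34 with median-of-ratios scaling and -0.90 by start points, against -2.00 as reported. With a penalty of 0.1 RPKM, 1 member passed towards colon in the cDNA fragmented pair and 5 in either direction, 2 passed towards colon in the ribosomal RNA-depleted pair, and 4 and 8 pathway genes passed towards colon in the pairs. By start points, 5 pathway genes passed towards small intestine and 2 towards colon in the cDNA fragmented pair, and 0 members passed towards colon in the ribosomal RNA-depleted pair. By start points Rbp2, called by reads in the cDNA fragmented pair, was not called and Lrat was. Start points saturate where a short gene has many reads, as for Rbp2 in small intestine, with 64218 reads on 1073 start points. The filters on low values changed no count of members or pathway genes. They had little room to do so, as the 3-fold rule itself asks for at least 3 RPKM in the higher tissue. Depth limits the colon values of Bcmo1 and Rdh7 in the ribosomal RNA-depleted pair, which rest on 1 and 4 reads. The labels carry no replicate numbers. A model of tissue with protocol as a block was not run, since it would take the protocols as replicates. With 1 library per tissue and protocol, no pair can be formed without any of its libraries.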

Other observations

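Among the sequence relatives, Rdh1 had a log2 ratio (colon over small intestine) of 2.30 by cDNA and -0.45 after ribosomal RNA depletion. Over uniquely placeable windows alone, the ratio of colon to small intestine after ribosomal RNA depletion was 1.04. Its interval, from 0.523 to 2.17, includes 1. Reads on the strand of the gene made up 53.6% and 77.1% of its reads in the directional libraries of small intestine and colon. Of the 38 Rdh1 reads in the cDNA fragmented small intestine library, 25 lay in windows with a second placement.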
